A study of Mus musculus with 22 samples.

Results

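The mRNAs of Actb, B2m, Gapdh and Rpl19 are the housekeeping probes of the mouse miRNA panel, and they were taken here as the rows with these 4 names, which are 4 of 626 probes. Most of the others are probes for mouse miRNAs, and 56 are for controls and miRNAs of other species. The panel was run on fallopian tube (FT) tissue, tumors and plasma of mice with a doxycycline-inducible Pax8-Cre system, in which Cre acts in cells that express Pax8, and the study asked which miRNAs differ between normal and induced or malignant tissue and plasma. The assay counts fluorescent barcodes, and the miRNA probes read miRNAs that were first ligated to a tag, whereas an mRNA is read by its probes without that ligation.

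The samples were 5 uninduced control FTs (CT), 5 doxycycline-induced FTs, 5 metastatic tumors (M), plasma of 3 control mice (CS) and plasma of 4 induced mice (TS). All mice carried Brca1 or Brca2 alleles made for deletion. The controls had them unrecombined, as Brca1 fl/fl (CT1, CT3), Brca1 fl/+ (CT2), Brca2 fl/fl (CT4) or Brca2 fl/+ (CT5). FT1, FT3 and FT5 were Brca2 -/+, FT2 was Brca1 -/- and FT4 was Brca2 -/-. M1 and M3 were Brca2 -/-, M2 and M6 were Brca1 -/+ and M4 was Brca2 -/+. M6 is titled a metastasis and its tissue is labelled an ovarian tumor. CS2 to CS4 share their animals with CT2 to CT4, and TS1 to TS4 with FT2 to FT5. The ages are not given in the sources used here. The study names matching FTs and tumors from the same mice but not which samples they are, so p-values of M against FT treat all samples as separate. The assay was loaded with 100 ng of tissue RNA and 10 ng of plasma RNA.

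Actb encodes a cytoskeletal actin, B2m the light chain of MHC class I molecules, which interferon induces, Gapdh an enzyme of glycolysis, and Rpl19 a protein of the large ribosomal subunit. These genes are called housekeeping genes because most cells express them, and they are often used as references for RNA input. Their levels are nonetheless known to vary with cell type, growth and oxygen supply. In blood plasma, which holds few cells, mRNA is known to be scarce and fragmented, while miRNAs bound to proteins or enclosed in vesicles are stable.

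In the mouse genome (RefSeq, GRCm38.p6), Actb lies at chr5:142903115-142907976, B2m at chr2:122147687-122153082, Gapdh at chr6:125161852-125166467 and Rpl19 at chr11:98022003-98030493. Pseudogenes named after the gene with the suffix -ps, by symbol or synonym, numbered 1 for Actb, 0 for B2m, 3 for Gapdh and 13 for Rpl19. Those annotated under other names were not counted, so these numbers do not rank the genes by their copies. The probe sequences were not used here, so counts from near-identical copies could not be told apart. The promoter windows of B2m and Rpl19, from 250 bases before to 50 bases after a transcription start, are shown because these genes moved together across the samples although they serve unrelated tasks. Capitals mark matches, on either strand, to the motifs searched, which were the TATA-like letters TATANAA, the box CCAAT, the GC box GGGCGG, the spaced pair GAAANNGAAA and the E-box CACGTG. The motifs were chosen after the sequences were seen. The windows lie at chr2:122147437-122147736 (plus strand) and chr11:98026460-98026759 (plus strand).
B2m: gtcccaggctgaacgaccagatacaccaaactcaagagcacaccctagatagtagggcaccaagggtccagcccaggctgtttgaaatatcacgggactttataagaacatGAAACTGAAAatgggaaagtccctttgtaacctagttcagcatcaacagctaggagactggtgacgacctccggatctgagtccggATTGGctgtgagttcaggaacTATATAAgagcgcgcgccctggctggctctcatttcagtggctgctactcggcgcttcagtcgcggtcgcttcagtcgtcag
Rpl19: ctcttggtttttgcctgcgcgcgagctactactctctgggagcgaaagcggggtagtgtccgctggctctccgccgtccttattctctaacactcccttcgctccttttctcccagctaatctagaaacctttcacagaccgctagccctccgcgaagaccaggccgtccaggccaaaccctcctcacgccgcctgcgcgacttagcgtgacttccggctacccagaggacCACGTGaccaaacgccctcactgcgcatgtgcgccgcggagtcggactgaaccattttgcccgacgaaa
The B2m window held GAAANNGAAA, a spacing found in interferon response elements, together with CCAAT on the minus strand (printed as ATTGG) and the TATA-like letters TATANAA. GAAANNGAAA occurred in 3.44% of the 32851 promoter windows of this length, CCAAT in 37.4% and TATANAA in 11.3%. The Rpl19 window held CACGTG, which occurred in 7.15% of windows. GGGCGG, found in 35.7% of windows, was in neither of these windows. RefSeq gives Rpl19 a second start, whose window, chr11:98026674-98026973 (plus strand), overlaps the printed one and held both CACGTG and GGGCGG, and the Gapdh window held none of the motifs. These matches are descriptions of letters, and no binding was measured.

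Counts summed over the miRNAs were 70164 to 598321 in tissue and 18350 to 269005 in plasma. The 8 negative hybridization probes gave 1 to 63 counts, and a probe was called detected in a sample above their mean plus 2 SD, which was 18.3 to 67.7 counts in the 22 samples. Summed counts of marker miRNAs of other cell types, relative to all miRNAs, differed among the tissues. The 5 miRNAs of smooth muscle and stroma, miR-143 and miR-145 among them, summed to 4713 to 13280 normalized counts in CT and 626 to 3821 in M. The 5 ciliated-cell miRNAs of the miR-34 and miR-449 family summed to 312 to 3767 in CT and 27.9 to 88.3 in M. Of these 5, 2 were above the detection level in every control FT, 0 in every induced FT and 0 in every tumor, so their low sums may hold background. The 5 leukocyte miRNAs, with miR-142 and miR-223, summed to 593 to 1164 in CT, 785 to 1336 in FT and 967 to 6301 in M. The 2 endothelial miRNAs, the arms of miR-126, summed to 4224 to 6683 in CT, 3205 to 55041 in FT and 7887 to 19897 in M. The labelled FT epithelium was represented in CT and FT by all 5 miRNAs of its list, the miR-200 family, which summed to at least 8247, whereas in M they ranged from 242 to 42009.8, and 1 of the 5 was above its detection level in every tumor.

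All 4 mRNAs were detected in every one of the 15 tissue samples. Together they took 1.03% to 3.83% of all counts in CT, 0.404% to 19.4% in FT and 5.80% to 23.9% in M. In plasma the share was 0.0122% to 0.153%. The 5 tumors therefore all lay above the 5 control FTs in the share of counts on these mRNAs, while the induced FTs spanned both.

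The counts as deposited are given first, without scaling. Actb gave 1180, 3951, 5355, 3100 and 1024 counts in CT1 to CT5, 39108, 39515, 328, 21263 and 4375 in FT1 to FT5, and 17012, 11448, 9863, 43736 and 20302 in M1 to M4 and M6. Every tumor was above every control FT, and FT3 was below all of them. B2m gave 313, 983, 913, 469 and 95 counts in CT, 16052, 7719, 76, 1115 and 415 in FT, and 1041, 1729, 633, 2688 and 2994 in M. Here M3 fell within the range of CT, and FT1 was the highest of the 15 samples. Gapdh gave 109, 322, 260, 181 and 115 counts in CT, 1834, 614, 50, 129 and 394 in FT, and 366, 386, 310, 1645 and 1723 in M. M3 again fell within the control range. Rpl19 gave 410, 1882, 2043, 1146 and 367 counts in CT, 13590, 7393, 123, 3466 and 1342 in FT, and 4508, 3978, 3369, 10360 and 12317 in M. As for Actb, the tumors and the control FTs did not overlap.

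**Figure D1:**
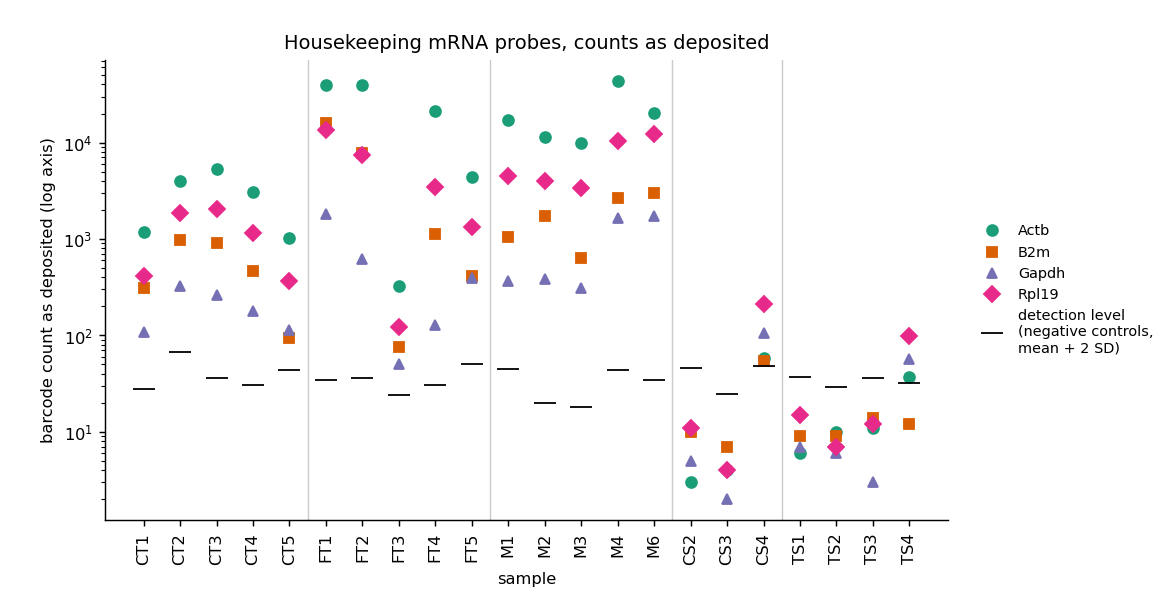
Barcode counts of the 4 mRNA probes as deposited (log axis) in each of the 22 samples, with the detection level of each sample (mean plus 2 SD of its 8 negative hybridization controls) as a black bar. All tissue points lie above their bar, FT3 is the lowest tissue sample for each probe, and in plasma only CS4 and TS4 have points above it.

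Without scaling, the mean log2 count of Actb was 2.88 higher in M than in CT (7.35-fold, two-sided exact permutation p = 0.00794, 0.0635 after Benjamini-Hochberg adjustment over 16 tests). The difference was 2.70 for Rpl19 (6.50-fold, exact p = 0.00794, adjusted 0.0635), 1.90 for B2m (3.74-fold, exact p = 0.0317, adjusted 0.127) and 1.87 for Gapdh (3.66-fold, exact p = 0.0159, adjusted 0.0847). With 5 samples against 5 the smallest p that this test can give is 0.00794, and no test at that p could pass by itself after adjustment over the 16. The differences of FT from CT were 1.84 for Actb, 1.69 for B2m, 0.78 for Gapdh and 1.29 for Rpl19, with exact adjusted p of 0.649 or above. In counts as deposited, 0 of the 16 tests passed the threshold of 0.05, and 4 had an unadjusted exact p under it, all of M against CT. Deposited counts also carry how much RNA was read in each sample, which the next values set against the miRNAs.

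Relative to the miRNAs, all 4 mRNAs rose in metastatic tumors. Each count was set against the geometric mean, in its sample, of the 100 miRNAs most abundant over the tissue samples, and such values are called normalized counts. Actb, the actin mRNA, had 1289, 2589, 5301, 2306 and 2399 normalized counts in CT and 45509.7, 10661, 27176, 105698 and 13854 in M. The lowest tumor was above the highest control, and M4 was the highest. With edgeR's quasi-likelihood test over 570 features, Actb was higher in M by 3.87 on the log2 scale (SE 0.678, 14.6-fold, adjusted p = 0.000723).

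Rpl19, the ribosomal protein mRNA, had 448, 1233, 2023, 853 and 859.7 normalized counts in CT and 12059.6, 3704, 9283, 25037 and 8405 in M. It was higher in M by 3.43 on the log2 scale (SE 0.600, 10.8-fold, edgeR adjusted p = 0.000723). The groups did not overlap. Gapdh, the glycolytic enzyme mRNA, had 119, 211, 257, 135 and 269 normalized counts in CT and 979, 359, 854, 3976 and 1176 in M, and M2 was close to the control range. Its difference was 2.89 (SE 0.622, 7.41-fold, edgeR adjusted p = 0.00332). B2m, the MHC class I light chain mRNA, had 342, 644, 904, 349 and 223 normalized counts in CT and 2785, 1610.1, 1744, 6496 and 2043 in M. Its edgeR estimate was the smallest of the 4, at 2.57 (SE 0.568, 5.96-fold, edgeR adjusted p = 0.00396), and its groups did not overlap either.

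Thus 4 of 4 mRNAs passed the test in M against CT, beside 11.2% of all 570 features that were called higher. The groups of all 4 also did not overlap, beside 8.07% of all features with every tumor above every control. With M4, the highest tumor, left out, all 4 still passed, among 61 of 570 features called higher. The differences were then 3.13 for Actb, 2.95 for Rpl19, 2.09 for Gapdh and 2.05 for B2m (edgeR adjusted p of 0.000607 to 0.00539). The median log2 difference over all 570 features was 0.30, and the mRNAs exceeded it by 3.57 (Actb), 3.13 (Rpl19), 2.59 (Gapdh) and 2.27 (B2m). The median moved with the scaling, to -0.19 with total miRNA counts, -0.46 with the positive hybridization controls and 0.46 with the positive ligation controls. The features called higher and lower were 64 and 24 with the main scaling, 46 and 72 with total miRNA counts and 26 and 114 with the positive hybridization controls. Relative to these medians the mRNAs were higher in M by 1.80 to 3.48 under those 3 scalings. Actb and Rpl19 passed the test under every scaling run, whereas B2m and Gapdh did not pass with the positive hybridization controls (edgeR adjusted p = 0.192 and 0.0896) or the positive ligation controls (0.141 and 0.0505). The sums of the marker miRNAs of smooth muscle, ciliated cells and endothelium given above also did not overlap between CT and M, those of leukocytes and epithelium overlapped, and their part in the mRNA difference was not tested. In whole tissue, more cells that express an mRNA and more mRNA per cell cannot be told apart, and a rise relative to miRNA cannot be told apart from a fall of the miRNAs used for scaling.

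**Figure D2:**
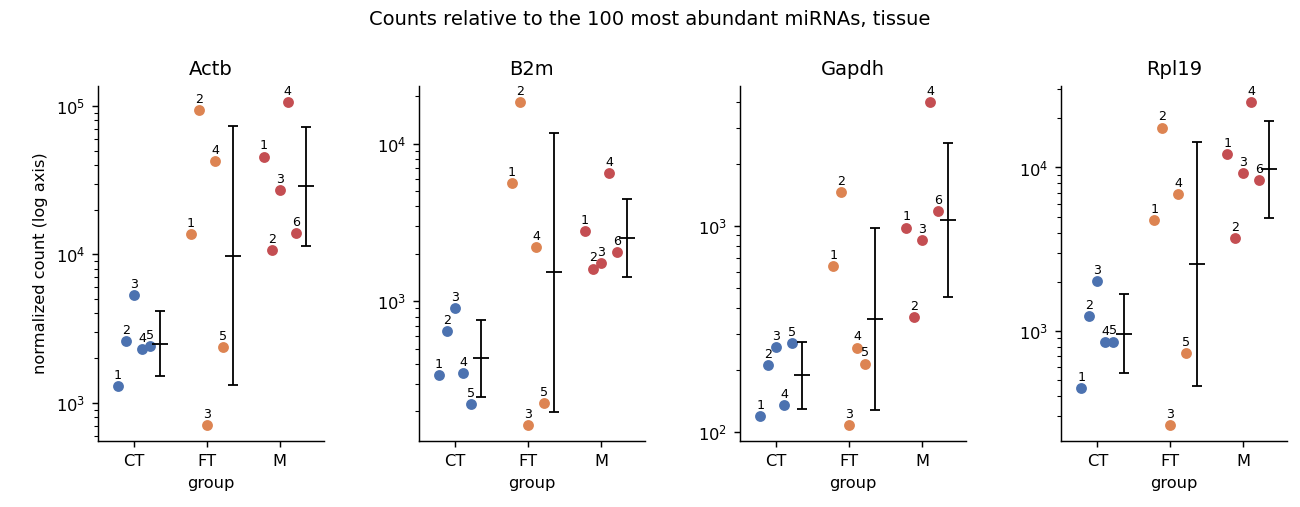
Normalized counts (log axis, relative to the 100 most abundant miRNAs) of the 4 mRNAs in control FT (CT), induced FT (FT) and metastatic tumors (M). Points are samples with their number, and the black bars are the mean and SD of the log2 values (n = 5 per group). Every tumor is above every control for all 4 mRNAs, and FT2, FT1 and FT4 lie far above FT3 and FT5 for Actb, B2m and Rpl19.

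In the induced FTs the mRNAs split the group. Actb had 13649.7, 93599, 709, 42272 and 2384 normalized counts in FT1 to FT5, and Rpl19 had 4743, 17512, 266, 6891 and 731. For both genes FT1, FT2 and FT4 were above every control FT, FT5 was within the control range and FT3 was below it. B2m had 5603, 18284, 164, 2217 and 226 normalized counts and showed the same split, with FT1, FT2 and FT4 above the controls and FT3 below them. Gapdh had 640.1, 1454, 108, 256 and 215, so that FT1 and FT2 were above the controls, FT4 and FT5 within their range and FT3 just below it. The geometric mean of the 4 mRNAs varied 60.1-fold among the induced FTs, 7.39-fold among the tumors and 3.21-fold among the control FTs. Sums of marker miRNAs of some cell types divided the induced FTs in the same way. Those of endothelium were 12127, 55041 and 22606 normalized counts in FT1, FT2 and FT4 against 3205 and 4421 in FT3 and FT5, and those of epithelium 15976, 18151 and 45391.5 against 8247 and 8742. Those of ciliated cells ran the other way, with 397, 94.7 and 123 against 1774 and 1707, as did smooth muscle and stroma, with 5749.9, 4823 and 3111 against 10795 and 16868. Sums of the 3 liver miRNAs also ran the other way, with 68.4, 104 and 87.5 in FT1, FT2 and FT4 against 1342 and 233 in FT3 and FT5. Of these 3, 0 were above the detection level in every induced FT. Leukocyte sums did not divide the group, with 1036, 1139 and 785 in FT1, FT2 and FT4 against 1336 and 1028 in FT3 and FT5. Neither did those of the erythrocyte miRNAs, miR-451 and miR-144 among them, with 7603, 1623 and 5509 against 7052 and 4093. The part of these cell types in the mRNA values was not tested.

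None of the 4 passed the test in FT against CT, beside 0.175% of the 570 features called higher. The log2 differences were 3.46 for Actb (SE 0.989, edgeR adjusted p = 0.0967), 3.43 for B2m (SE 0.959, edgeR adjusted p = 0.0967), 2.48 for Rpl19 (SE 0.843, edgeR adjusted p = 0.252) and 1.43 for Gapdh (SE 0.633, edgeR adjusted p = 0.586). Over all features 44 of 570 had an unadjusted edgeR p under 0.05, these 4 among them. The groups overlapped for all 4, beside 0.526% of features with every induced FT above every control. With FT3 left out, Actb (edgeR adjusted p = 0.0205), B2m (0.0205) and Rpl19 (0.0305) passed, among 15 of 570 features called. With FT5 left out, Actb (edgeR adjusted p = 0.0173) and B2m (0.0123) passed, among 13 of 570 called. With FT2, the highest sample, left out, the differences were 2.41 for Actb, 2.06 for B2m, 1.54 for Rpl19 and 0.63 for Gapdh (edgeR adjusted p = 0.789 for all 4). On mean log2 values limma gave 1.97, 1.82, 1.42 and 0.91 (adjusted p = 0.799 for all 4). DESeq2 called Actb and B2m higher with all samples (adjusted p = 0.0178 for both), among 11 of 570 features called. FT3 and FT5, the induced FTs with low mRNA, were Brca2 -/+, as was FT1, which was above the controls.

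The tumors and the induced FTs did not differ in any of the 4 by the test, beside 0.877% of features called higher in M. The log2 differences were 0.41 for Actb, 1.46 for Gapdh and 0.96 for Rpl19, with SEs of 0.878 to 1.04 and edgeR adjusted p of 0.807 to 0.993. For B2m edgeR gave -0.85 (SE 0.990, adjusted p = 0.993), whereas the mean log2 normalized count was higher in M by 0.72. The values of every mRNA overlapped between the groups, beside 1.05% of features with every tumor above every induced FT. A p that misses the threshold here does not show equal levels, since the induced FTs alone ranged over 13.5-fold for Gapdh and 132-fold for Actb.

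The scaling was then turned round. With each sample scaled to the geometric mean of its 4 mRNAs, an alternative added after the data were seen, 498 miRNAs were lower in M than in CT and 6 were higher (edgeR adjusted p under the threshold), so that 88% of the miRNAs were called lower. With the miRNA scaling, the same fit over the miRNAs called 24 lower and 58 higher. The median log2 difference over the miRNAs was -2.64 with the mRNA scaling and 0.29 with the miRNA scaling. In FT against CT the mRNA scaling called 0% of the miRNAs lower and 1 higher. Since the mRNAs were higher in M relative to miRNA, this scaling lowers every miRNA in M alike, so the count restates the difference given above on another scale. These values do not say whether mRNA or miRNA held constant per cell.

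In normalized counts the mRNAs were among the more variable features of the panel. The miRNAs used for scaling are among the features compared. Scaling to them can lower their own variation, whereas the mRNAs took no part in the scaling. Over the 15 tissue samples the coefficient of variation of normalized counts was 160% for B2m, 137% for Actb, 135% for Gapdh and 116% for Rpl19, against a median of 64.9% over the miRNAs. They ranked 23, 32, 35 and 53 from the most variable of 570. Within CT alone the coefficients were 56.4% for B2m, 54.8% for Rpl19, 54.0% for Actb and 34.8% for Gapdh, against a miRNA median of 39.9%. Gapdh was thus the least variable of the 4 in control FT. Among the 145 features with a mean of at least 50 counts in tissue, where weak probes do not dominate, the CT median over the miRNAs was 25.5%, and all 4 mRNAs were above it. Over the 15 tissue samples B2m, Actb, Gapdh and Rpl19 ranked 18, 25, 27 and 38 of these 145. In counts as deposited they ranked 10, 60, 40 and 66, and Actb (102%) and Rpl19 (100%) were close to the miRNA median of 97.0%. Within M, deposited B2m (56.1%), Rpl19 (59.7%) and Actb (66.8%) were below the miRNA median of 76.2%, and Gapdh (82.3%) was above it.

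They varied together. Across the 15 tissue samples Pearson's r of the log2 normalized counts was 0.982 for Actb and Rpl19, 0.921 for B2m and Rpl19, 0.920 for Actb and B2m, 0.917 for Gapdh and Rpl19, 0.874 for Actb and Gapdh and 0.834 for B2m and Gapdh. After the group means were removed r remained between 0.794 and 0.980. The values of a sample share its library and its scaling factor, which raises such correlations, and in counts as deposited r ranged from 0.823 to 0.975. The mean log2 normalized count of the 4 had r of -0.62 with the geometric mean of the 3 positive ligation controls, which was highest in FT3 (5666 counts), CT1 (4629) and FT5 (4184) and lowest in M3 (534) and FT4 (559.9). The part of ligation in the mRNA to miRNA balance was not tested.

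Ratios between the mRNAs need no scaling, because both counts come from the same sample. Each probe pair reads its mRNA with its own efficiency, so a ratio was compared between samples and not read as relative amounts of the mRNAs. Actb/Rpl19, actin to ribosomal protein, varied least in CT and FT, with log2 values of 1.07 to 1.53 in CT, 1.42 to 2.62 in FT and 0.72 to 2.08 in M. It was highest in FT4 and FT2 and lowest in M6. The mean log2 ratio was 1.38 ± 0.181 (SD, n = 5) in CT, 1.94 ± 0.545 (n = 5) in FT and 1.56 ± 0.524 (n = 5) in M.

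Actb/Gapdh, actin to glycolytic enzyme, had log2 values of 3.15 to 4.36 in CT, 2.71 to 7.36 in FT and 3.56 to 5.54 in M. FT4, at 7.36, and FT2, at 6.01, were above all other tissue samples. In FT4 Gapdh made up 0.497% of the counts on the 4 mRNAs, against 3.03% to 7.18% in the controls, and Actb made up 81.9%. Gapdh in FT4 therefore stayed in the control range of normalized counts while Actb was above it. FT3 had the lowest Actb/Gapdh ratio of the tissue samples.

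B2m/Rpl19, MHC class I light chain to ribosomal protein, had log2 values of -1.95 to -0.39 in CT, -1.69 to 0.24 in FT and -2.41 to -1.20 in M. The mean was -1.15 ± 0.566 in CT, -0.74 ± 0.911 in FT and -1.94 ± 0.449 in M (SD, n = 5 each). FT1 and FT2 had the highest values. B2m made up 11.1% ± 3.75 of the counts on the 4 mRNAs in CT and 6.30% ± 2.50 in M (SD, n = 5 each). Gapdh/Rpl19 had means of -2.35 in CT, -2.86 in FT and -3.18 in M, and B2m/Gapdh means of 1.21, 2.11 and 1.24.

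None of the 24 comparisons of a ratio between groups passed the threshold after adjustment, and the lowest adjusted exact permutation p was 0.222. With the smallest exact p of 0.00794 for 5 against 5 samples, no ratio could pass by itself after adjustment over the 24. The ratios of TS against CS could not pass at all. In M against CT, 4 of the 6 ratios had an unadjusted two-sided exact p under 0.05. They were Actb/B2m (0.98 higher on the log2 scale, exact p = 0.0397), Actb/Gapdh (1.01 higher, exact p = 0.0476), B2m/Rpl19 (a difference of -0.80, exact p = 0.0397) and Gapdh/Rpl19 (-0.83, exact p = 0.0476). Each of these 4 ratios sets Actb or Rpl19 against B2m or Gapdh, so they share counts and are not separate results. In them Actb and Rpl19 lay on the higher side and B2m and Gapdh on the lower side in M. In M against FT the B2m/Rpl19 difference was -1.20 (exact p = 0.0476), and in FT against CT the Actb/Rpl19 difference was 0.56 (exact p = 0.0556). None of the ratios separated 2 tissue groups without overlap.

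**Figure D3:**
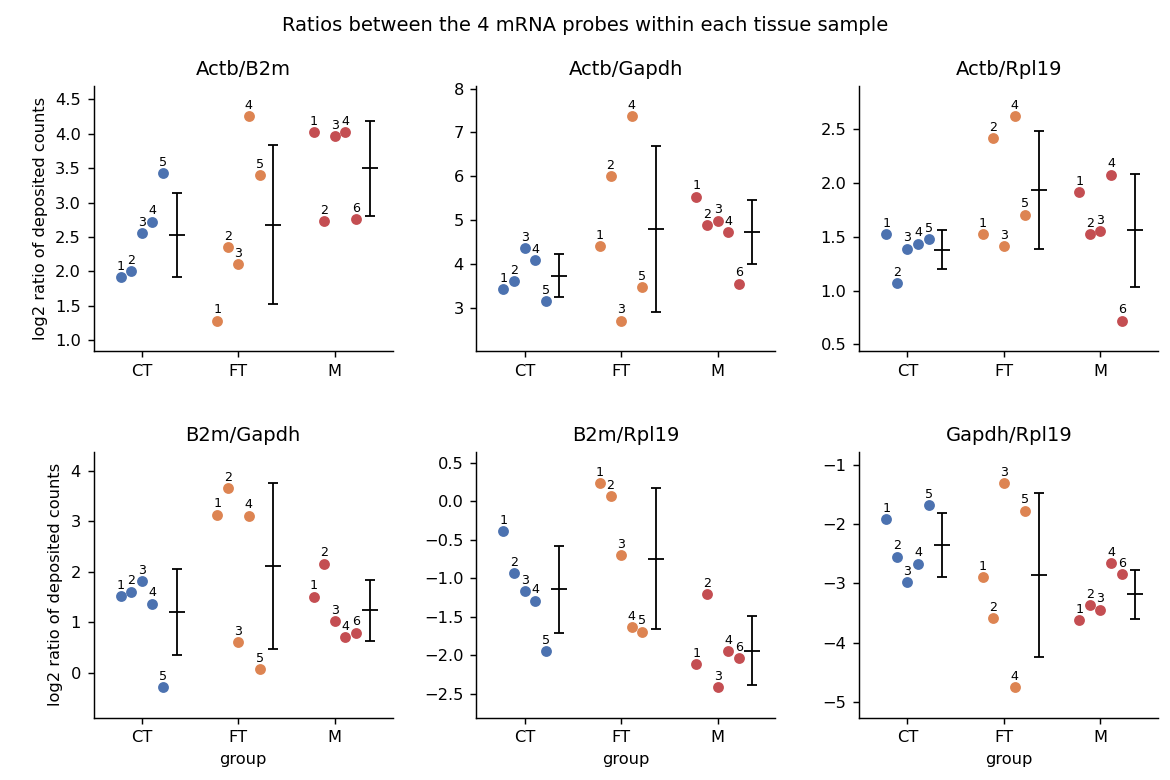
Log2 ratios of the deposited counts of each pair of mRNA probes in control FT (CT), induced FT (FT) and metastatic tumors (M). Points are samples with their number, and the bars are the mean and SD (n = 5 per group). The groups overlap for every ratio, and FT4 and FT2 stand above the other samples for Actb/Gapdh.

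In plasma the mRNA probes were mostly at the level of the negative controls. Actb had 3, 4 and 58 counts in CS2 to CS4 and 6, 10, 11 and 37 in TS1 to TS4. Rpl19 had 11, 4 and 213 counts in CS and 15, 7, 12 and 98 in TS. In CS2, CS3, TS1, TS2 and TS3 all 4 probes were below the detection level, so mRNA was not detectable there at this depth.

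Gapdh had 5, 2 and 107 counts in CS and 7, 6, 3 and 57 in TS, and B2m had 10, 7 and 54 in CS and 9, 9, 14 and 12 in TS. In CS4 all 4 were above the detection level of 48.4 counts, with the 95% Poisson intervals of Actb (from 44.0) and B2m (from 40.6) reaching below it. In TS4 Actb, Gapdh and Rpl19 were above the level of 32.2 counts and B2m was not. The 37 counts of Actb in TS4 were close to its highest negative control of 36, and their interval (from 26.1) reached below the detection level. The intervals of Gapdh (87.7 to 129) and Rpl19 (185 to 244) in CS4 and of Gapdh (43.2 to 73.9) and Rpl19 (79.6 to 119) in TS4 lay above it, and they cover counting error only. CS4 and TS4 were also the plasma samples with the most abundant miRNAs. In them the 30 miRNAs most abundant over plasma had geometric means of 2331 and 1895 counts, against 131 to 889 in the others. Plasma thus gave mRNA counts in 1 control and 1 induced mouse.

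**Figure D4:**
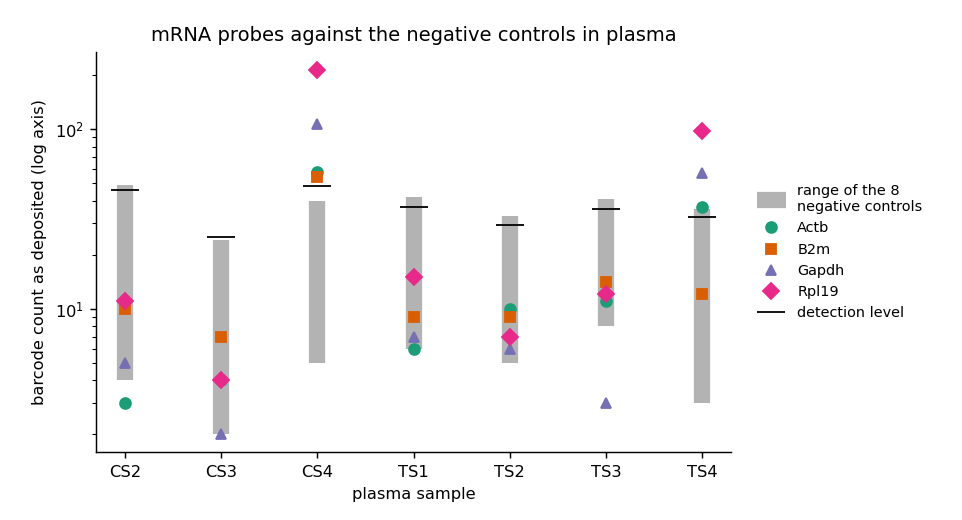
Deposited counts (log axis) of the 4 mRNA probes in the 7 plasma samples, with the range of the 8 negative hybridization controls as a grey bar and the detection level as a black bar. The probes sit at or under the range of the negative controls except in CS4 and TS4, where Rpl19 and Gapdh are highest.

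Relative to the 30 most abundant miRNAs of plasma, 0 of 4 mRNAs passed the test in TS against CS (edgeR adjusted p of 0.569 to 0.788), beside 0% of all features called higher. Over all features 42 of 570 had an unadjusted edgeR p under 0.05, and DESeq2 called 12 features, none of the mRNAs. The groups overlapped for all 4, beside 0.702% of features with every TS sample above every CS sample. The exact permutation test of 4 against 3 samples cannot give a p below 0.0571.

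In the plasma samples with detected mRNA the balance of the probes differed from that in tissue. The log2 Actb/Gapdh ratio was -0.88 in CS4 and -0.62 in TS4, whereas it was 2.71 or higher in all 15 tissue samples. Rpl19 made up 49.3% of the counts on the 4 mRNAs in CS4 and 48.0% in TS4, against 13.3% to 33.0% in tissue. Actb made up 13.4% and 18.1%, against 54.4% to 81.9%. The Actb probes had the most counts of the 4 in every tissue sample and in neither of these plasma samples. In both plasma samples the Poisson interval of Actb reached below the detection level, and B2m was not detected in TS4.

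Over the 7 mice with plasma and FT from the same animal, 5 of the 6 log2 ratios differed between plasma and tissue with the smallest p that sign flips over 7 mice can give (two-sided exact permutation p = 0.0156, adjusted 0.0188 over the 6). The mean differences of plasma from FT were -3.00 ± 0.999 for Actb/B2m, -4.36 ± 1.41 for Actb/Gapdh, -2.59 ± 1.05 for Actb/Rpl19, -1.36 ± 1.30 for B2m/Gapdh and 1.76 ± 0.677 for Gapdh/Rpl19 (SD, n = 7 mice), each in the same direction in 7 of 7 mice. B2m/Rpl19 differed by 0.41 ± 1.34 (higher in 4 of 7 mice, exact permutation p = 0.453). In 5 of the 7 mice the plasma counts were below the detection level, where they cannot be told apart from background, so these tests set tissue against mostly background values. The difference between the effect of induction in FT and in plasma was not past the threshold for any of the 6 ratios (exact permutation adjusted p of 0.822 to 0.929).

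The miRNAs whose log2 normalized counts were most like the mean of the 4 mRNAs over the 15 tissue samples were let-7i (r = 0.944), miR-98 (0.937), miR-22 (0.928), miR-126-3p (0.910) and miR-210 (0.904). They were the first 5 of 141 miRNAs with a mean of at least 50 counts, over which the median r was -0.06. With the group means removed r was 0.905, 0.907, 0.871, 0.879 and 0.835. These are descriptions over samples that share library and scaling. For single mRNAs, Actb was most like miR-98 (0.969), let-7i and miR-22, Rpl19 like let-7i (0.942), miR-22 and miR-98, and B2m like miR-126-3p (0.920), let-7i and miR-98. Gapdh had another order, with miR-1944 (0.887), miR-804 (0.865) and miR-210 (0.842) first.

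The mature sequences of those found in RefSeq (GRCm38.p6) are shown, under the current arm names, because let-7i and miR-98 share a seed. Capitals mark the seed, bases 2 to 8.
let-7i-5p: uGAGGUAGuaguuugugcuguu
miR-98-5p: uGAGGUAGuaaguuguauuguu
miR-22-3p: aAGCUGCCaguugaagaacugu
miR-126a-3p: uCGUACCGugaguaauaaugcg
miR-210-3p: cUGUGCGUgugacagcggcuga
miR-804: uGUGAGUUguuccucaccugga
The seed GAGGUAG is that of the let-7 family, to which let-7i and miR-98 belong, and the other 4 seeds differ from it and from each other. As background, miR-126 is made in endothelial cells and miR-210 is induced by low oxygen. let-7i had 1314 to 2557 normalized counts in CT, 897 to 27178 in FT and 6258 to 19819.5 in M. Its log2 difference of M from CT was 2.63 (SE 0.490, edgeR adjusted p = 0.00115). miR-98 had 91.8 to 196 normalized counts in CT, 99.4 to 879 in FT and 290 to 1317 in M, with a log2 difference of M from CT of 2.03 (SE 0.535, edgeR adjusted p = 0.0147). For both, FT2 and FT4 were at the height of the upper tumors and FT3 and FT5 at that of the controls, the split that the mRNAs showed. miR-210 differed by 3.69 between M and CT (SE 0.507, edgeR adjusted p = 0.000106) and miR-126-3p by 1.66 (SE 0.443, edgeR adjusted p = 0.0157). These miRNAs were picked for their likeness to the mRNAs over the same samples. Their differences between M and CT and their split among the induced FTs follow in part from that choice and are not separate evidence.

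**Figure D5:**
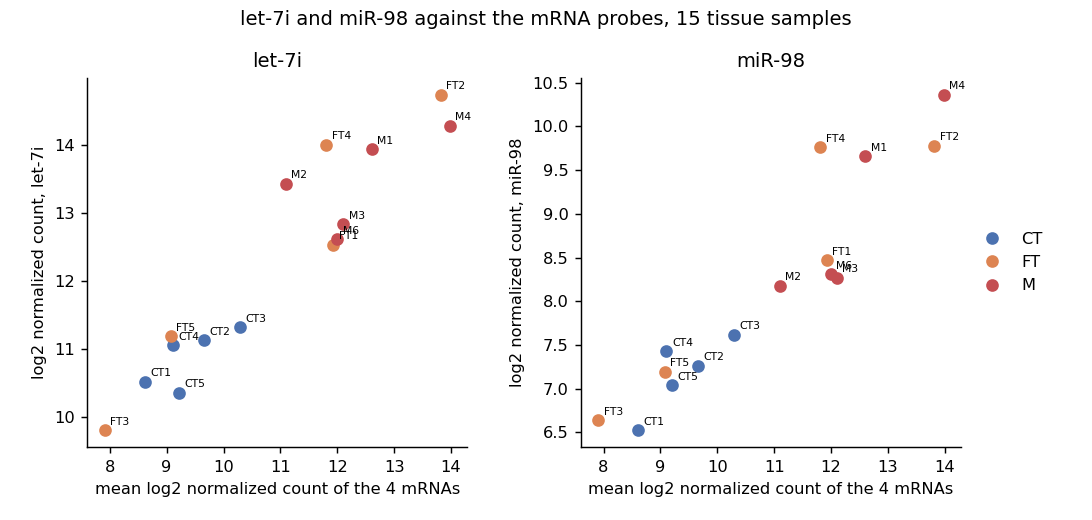
Log2 normalized counts of let-7i (left) and miR-98 (right) against the mean log2 normalized count of the 4 mRNAs in the 15 tissue samples, coloured by group. Pearson's r is 0.944 and 0.937, and FT3 and FT5 lie among or below the control FTs at the low end.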

How the data were processed

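The authors deposited barcode counts of 626 probes in 22 samples, whole numbers that are not normalized, and 0 columns were left unmatched to a sample. Their normalization in nSolver is not part of these counts, and whether controls were corrected for before deposit is not given in the sources used here. It was repeated by dividing by the geometric mean of the top 100 miRNAs in tissue and the top 30 in plasma. The 4 mRNAs and the mouse miRNAs (570 features) were fitted with the quasi-likelihood test of edgeR 4.0.16 under R 4.3.3 (those geometric means as library sizes, the compared groups alone, Benjamini-Hochberg adjustment over 570, threshold 0.05). Deposited counts and log2 ratios were tested with two-sided exact permutation tests in Python 3.11.15 (numpy 2.4.6, pandas 2.3.3, scipy 1.17.1, matplotlib 3.10.9). The tests were checked on simulated data. DESeq2 1.42.0, limma 3.58.1, the methods' t-test, other scalings, a minimum mean count of 20, a pseudocount of 10, subtraction of the negative controls and leaving out each sample were alternatives. Named besides the 4 mRNAs were the 5 miRNAs most like their mean in tissue and in plasma and the 3 most like each. The members, lists and rules were chosen with earlier results of these data known. The TS samples, also labelled serum, are called plasma. The p-values measure the spread between samples of a group, which the labels do not tie to separate mice. M5 and CS1, which the study excluded, were not analysed here. Pairing by mouse and Brca genotypes come from the study's sample table, and other alleles are not reported here. Sequences are from RefSeq (GRCm38.p6). With 3 to 5 samples per group the number of samples limits the precision.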

Additional observations from a re-analysis of the deposited data

Results flagged for a closer look

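Among 56 groups of values of the 4 mRNAs and their ratios, 6 held a sample whose gap to the others exceeded the 95% critical value of Dixon's test. Counts were screened on the linear scale and ratios as log2 values. Chance flags about 1 in 20 groups of normally distributed values, a rate that skewed linear counts need not keep. The flags on counts therefore mark large linear gaps and were not tested on the log2 scale. The log2 B2m/Gapdh ratio of CT5 was -0.28, far below the 1.37 to 1.81 of the other control FTs. M4 stood above the other tumors with 6496 normalized counts of B2m (the others had 1610.1 to 2785) and 3976 of Gapdh (the others had 359 to 1176). In the plasma of induced mice TS4 stood apart with 37 deposited counts of Actb (6 to 11 in the others), 57 of Gapdh (3 to 7) and 98 of Rpl19 (7 to 15). The plasma counts of CS4 were higher still, but 3 samples were too few for this test. The causes were not tested.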

How the results depend on the processing

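In M against CT all 4 mRNAs were higher under every scaling and test run and passed with each sample left out in turn (4 in each case). The number that passed was 2 with the positive hybridization controls, 2 with the positive ligation controls, 3 with the 3 tissue groups fitted together (B2m lost, adjusted p = 0.0836) and 0 with exact permutation tests adjusted over all features, whose number of splits bounds the p-value (137 of 570 features had an unadjusted p under 0.05). In FT against CT it was 2 with DESeq2 and 0 to 3 with a sample left out, 3 without FT3 and 2 without FT5. Of all 570 features, 11 were called with DESeq2, 15 without FT3 and 13 without FT5, against 1 in the main fit. In counts as deposited 3 tests of 16 passed with the negative controls subtracted and 0 with any sample left out. Leaving out a sample raises the smallest exact p of its comparisons, to 0.0159 for 5 against 4 samples, so the 0 is limited by the test. With the sample number as a replicate block the number was 0 in FT against CT, 4 in M against CT, 0 in M against FT and 1 in TS against CS, where B2m, below the detection level in 6 of 7 plasma samples, was called lower among 95 of 570 calls. The numbers mark different mice in these comparisons, and the correlations of same-numbered samples ranged from -0.37 to 0.35, so they were not taken to pair the samples. Over all settings the number of features called in M against CT ranged from 0 to 187, against 88.

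Some differences that did not pass a test changed sign. In M against FT, B2m was 0.72 with limma, the methods' t-test and permutation, 0.78 with the negative controls subtracted, 0.69 with a pseudocount of 10, 0.18 with the replicate block and -1.37 to 0.52 with a sample left out. Actb was -0.21 with the positive hybridization controls, -0.17 with the ligation controls and -0.33 to 1.46 with a sample left out. Of the ratios, B2m/Gapdh in M against CT was -0.0053 with the negative controls subtracted and -0.34 to 0.18 with a sample left out, Actb/Gapdh in M against FT was -0.57 to 0.59, Gapdh/Rpl19 in M against FT -0.80 to 0.064 and Actb/B2m in FT against CT -0.24 to 0.50. B2m/Rpl19 in plasma against tissue was -0.31 with the negative controls subtracted. The causes were not tested. No ratio between groups passed the threshold under any alternative run, and 5 of 6 ratios between plasma and tissue passed with each mouse left out.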

Other observations

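In the 7 plasma samples the miRNAs most like the mean of the 4 mRNAs were let-7f (r = 0.777), let-7e (0.756), miR-30c (0.708), miR-181a (0.664) and miR-103 (0.642), the first 5 of 95 miRNAs with a mean of at least 50 counts, over which the median r was -0.15. The mRNAs were below the detection level in 5 of these samples, and the values share library and scaling, so this is a description. None of these miRNAs was among the first 5 in tissue, where let-7i and miR-98 led.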
